A study of Mus musculus with 39 samples.

Results

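Trem1, Trem3, Treml2, Treml4, Cd300a, Cd300lb, Cd300ld and Cd300lf encode surface receptors of the TREM and CD300 families of myeloid cells, and are 8 of the 55487 gene identifiers in the deposited table. They were taken by symbol, with their CPM (counts scaled to a fixed library total) across the 8 groups of the series in view. The levels and changes of these 8 genes are therefore given as a description. Counts of them past a threshold stand beside the share of all genes, and nothing is read from those counts. Tests are given for related genes outside the member rule. Their lists were drawn up with earlier results of these data known, and the genes named from them were picked by their p in CON:CON.

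RNA was sequenced from microglia, the resident macrophages of the brain. Male mice 8 to 10 weeks old received lipopolysaccharide (LPS, 4500 EU/g), a component of bacterial cell walls, or saline into the peritoneum. After 18 hours the live, CD11b+, CD45-low and P2RY12+ cells of their striatum were sorted. Each library carries a prenatal term, MIA (maternal immune activation) or CON, and a second term, PLX or CON, which the labels do not define. An arm is written as prenatal term, colon, second term. The LPS groups hold 6 libraries of MIA:PLX, 6 of CON:PLX, 6 of MIA:CON and 4 of CON:CON, and the saline groups hold 3 of MIA:PLX, 4 of CON:PLX, 4 of MIA:CON and 4 of CON:CON. No strain or allele is given in the sources used here. The labels do not say that replicates came from separate animals, so p-values measure the spread between these libraries, which may be technical.

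Totals ran from 1510020 to 5746239 counts per library, with a median of 3095162. The titles of 2 further libraries, MIA_PLX_SAL replicate 1 and CON_CON_LPS replicate 3, mark them for exclusion, and they are left out of every group below. Among all 741 pairs of libraries, MIA_CON_LPS replicate 6 and the marked MIA_PLX_SAL replicate 1 were the closest: their counts over 11605 genes gave a chi-square of 1.526 per degree of freedom, and the next closest pair gave 2.417. In MIA_CON_LPS replicate 6 the gate gene P2ry12 stood at 1774 CPM, against at most 380.9 CPM in the LPS libraries of the other 3 arms, and values without that library are given where it moves a result. The microglia marker list summed to between 5975 and 15400 CPM in LPS libraries and between 16710 and 20430 CPM in saline libraries, with all 10 of its genes detected in every group. P2ry12 itself averaged 260.9 to 603 CPM in LPS groups (the highest in MIA:CON, with replicate 6 included) and 2342 to 2751 CPM in saline groups. Of the other genes of the gate, Itgam (CD11b) averaged 1313 to 1535 CPM in LPS groups and 1344 to 1591 CPM in saline groups. Ptprc (CD45) averaged 499.3 to 641.2 CPM in LPS groups and 520.0 to 565.3 CPM in saline groups.

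TREM and CD300 receptors are small immunoglobulin-like proteins that come in activating and inhibitory forms. Activating members such as TREM1 and TREM2 carry no signalling motif of their own and pair with adaptor chains such as DAP12, while inhibitory members such as CD300A and CD300LF (CLM-1) recruit phosphatases to tyrosine motifs in their tails. TREM1 is known for amplifying the response of neutrophils and monocytes to bacterial products, TREM2 for its role in microglia, and CD300 receptors for binding phospholipids of dying cells.

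The genes lie in 2 clusters. Trem1, Trem3, Treml4 and Treml2 follow each other within 79.8 kb of chromosome 17 (48232768 to 48312533, GENCODE M21 coordinates on GRCm38), all on the plus strand. Cd300a, Cd300lb, Cd300ld and Cd300lf lie within 244.0 kb of chromosome 11 (114890041 to 115133992), among 11 genes of the family. No exon of the 8 genes overlaps an exon of another gene. The CD300 cluster holds near copies of Cd300ld (Cd300ld2, Cd300ld3, Cd300ld4, Cd300ld5), among which estimated counting can split shared reads, so the values of Cd300ld are uncertain in that respect.

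RefSeq promoter sequence (GRCm38.p6) was found for 6 of the 8 genes, namely Trem1, Treml4, Cd300a, Cd300lb, Cd300ld and Cd300lf. The 250 bases before the start are shown for the pair with the largest rise after LPS and for the gene that fell. Capitals mark the core of the PU.1 motif (GAGGAA, or TTCCTC on the other strand), the site of an ETS factor of myeloid cells. The Trem1 window is chr17:48232489-48232738 (plus strand), the Cd300lf window chr11:115133993-115134242 (minus strand) and the Cd300a window chr11:114889791-114890040 (plus strand).
Trem1: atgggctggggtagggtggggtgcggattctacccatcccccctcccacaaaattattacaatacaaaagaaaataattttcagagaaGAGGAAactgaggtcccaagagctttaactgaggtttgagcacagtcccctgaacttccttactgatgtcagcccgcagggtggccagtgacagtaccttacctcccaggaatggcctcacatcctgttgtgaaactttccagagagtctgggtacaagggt
Cd300lf: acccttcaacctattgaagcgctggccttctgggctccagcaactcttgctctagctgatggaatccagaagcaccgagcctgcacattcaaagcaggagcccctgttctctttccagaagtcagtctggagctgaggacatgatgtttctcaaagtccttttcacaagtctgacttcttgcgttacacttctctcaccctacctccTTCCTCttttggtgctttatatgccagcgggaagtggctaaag
Cd300a: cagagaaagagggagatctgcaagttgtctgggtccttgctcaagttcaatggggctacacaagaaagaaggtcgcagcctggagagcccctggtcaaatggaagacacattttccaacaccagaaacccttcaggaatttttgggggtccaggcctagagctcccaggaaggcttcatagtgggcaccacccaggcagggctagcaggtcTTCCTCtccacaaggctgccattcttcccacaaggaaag
The core begins 162 bases before the start in Trem1, 43 bases before it in Cd300lf and 39 bases before it in Cd300a. It was found in 5 of the 6 windows (all but that of Cd300lb), against 23.3% of 32851 RefSeq promoter windows of the same length. Of 4 other motifs searched on both strands, the C/EBP form TTGCNNAA was found in Cd300a alone (9.56% of all windows), the NF-kB form in Cd300lb alone (1.41%), the GAS form TTCNNNGAA in Trem1 alone (7.02%) and the AP-1 form TGANTCA in none of the 6 (6.75%). In Trem1 the GAS match directly precedes the PU.1 core without overlapping it. These matches describe letters in a window and are not shown to be binding sites.

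After LPS, Trem1 and Cd300lf stood far above saline in each of the 4 arms, Treml2 stood several-fold above it, and Cd300a stood at less than its saline level in every LPS library. Trem3 was detected at a low level after LPS and in no saline library. Cd300ld was higher on average in each arm with overlap in 3 of them, and Treml4 and Cd300lb were near the detection limit. In bulk samples like these, fewer cells of a type and less RNA per cell cannot be told apart. The plot of CPM by library shows all 8 genes.

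**Figure D1:**
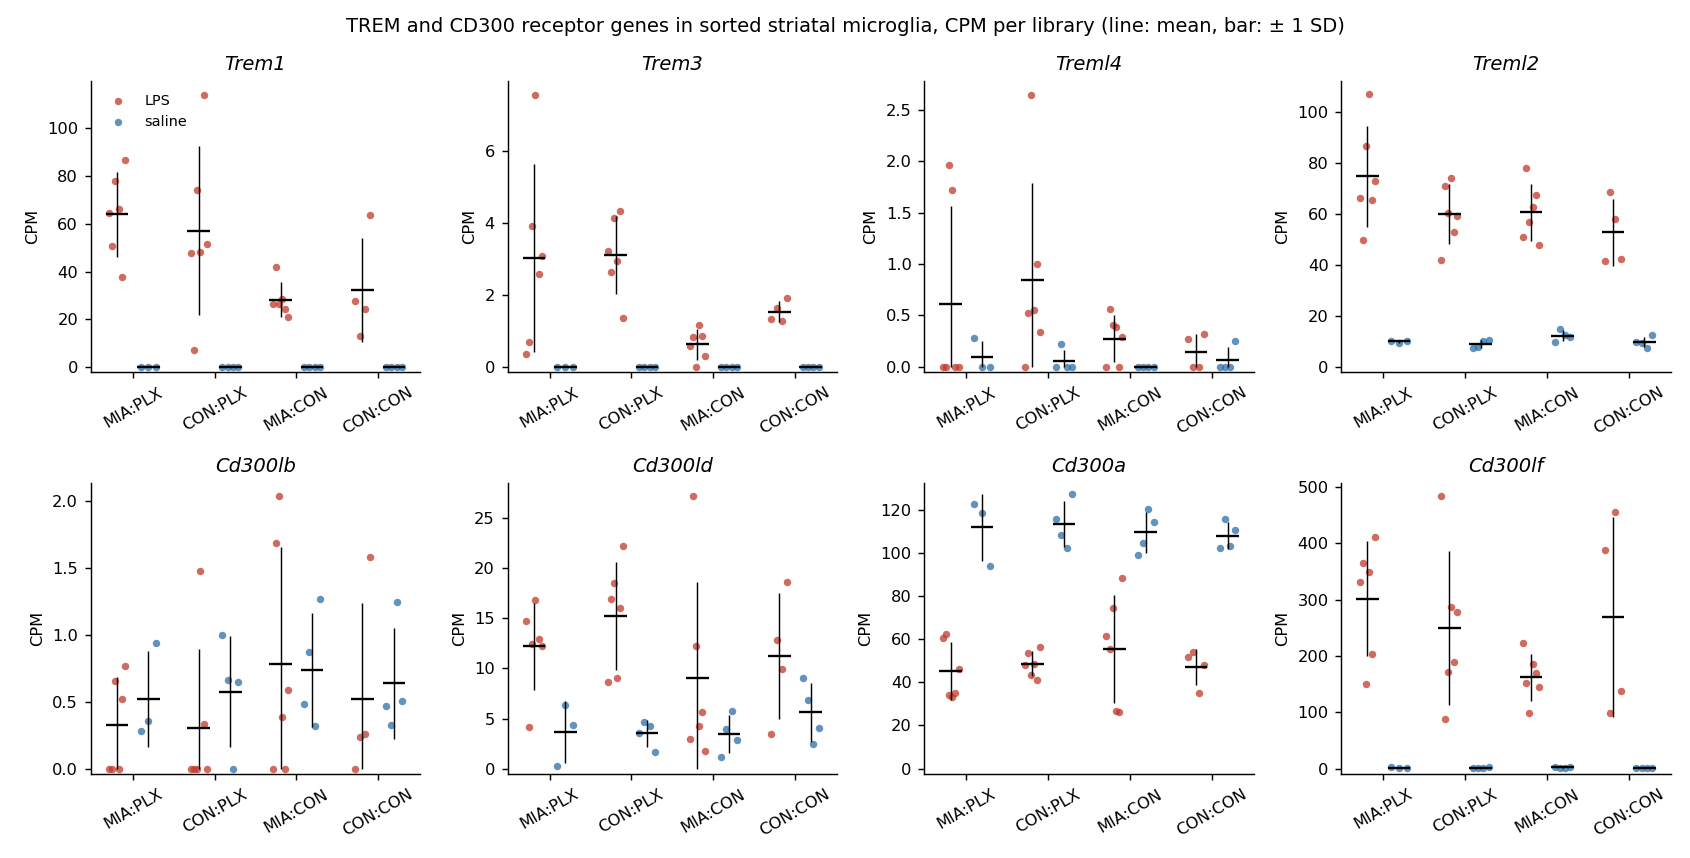
CPM (TMM-scaled) of each gene in the 37 libraries, by arm, with LPS libraries (red) left of saline libraries (blue). Each point is a library, the line is the group mean and the bar 1 SD either way (cut at 0). Trem1 is at 0 in all 15 saline libraries, and Cd300a is the gene whose LPS points all lie below the saline points.

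Trem1, the activating receptor of the family that amplifies inflammatory responses, had no count in any of the 15 saline libraries and 3143 counts in the 22 LPS libraries. In MIA:PLX the 6 LPS libraries had from 37.68 to 86.61 CPM with a median of 65.36, against 0, 0 and 0 CPM in saline. In CON:PLX they had from 6.872 to 114.2 CPM with a median of 49.77, against 0 in each of 4 saline libraries. Every LPS library therefore held Trem1, with a spread of 16.6-fold between the lowest and the highest. In MIA:CON the LPS libraries had from 21.1 to 42.04 CPM with a median of 26.5, against 0 in each of 4 saline libraries. In CON:CON they had 27.75, 12.86, 24.45 and 63.6 CPM, against 0 in each of 4 saline libraries. Set against 3 counts over the saline group, the floor used for a group at 0, Trem1 was at least 203-fold higher in MIA:PLX, at least 308-fold in CON:PLX, at least 122-fold in MIA:CON and at least 146-fold in CON:CON. These bounds cover counting error only.

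Trem3, a mouse receptor that pairs with DAP12, showed the same pattern at a far lower level. It had 153 counts in the LPS libraries, at least 1 in 21 of the 22, and 0 in the 15 saline libraries. Trem3 averaged 3.03 ± 2.61 CPM in MIA:PLX after LPS (SD, n = 6), 3.10 ± 1.08 CPM in CON:PLX (SD, n = 6), 0.625 ± 0.421 CPM in MIA:CON (SD, n = 6) and 1.54 ± 0.289 CPM in CON:CON (SD, n = 4). The LPS libraries of CON:CON held 1.334, 1.637, 1.274 and 1.898 CPM, and those of MIA:CON ran from 0 to 1.153 CPM with a median of 0.7157. Trem3 was at least 9.93-fold higher after LPS in MIA:PLX, at least 17.8-fold in CON:PLX, at least 2.645-fold in MIA:CON and at least 7.37-fold in CON:CON.

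Treml4, a receptor of tissue macrophages and dendritic cells, lies between Trem3 and Treml2 and was barely detected. It had 36 counts in 13 of the 22 LPS libraries and 3 counts in 3 of the 15 saline libraries. The highest LPS library, CON_PLX_LPS replicate 3, had 2.648 CPM, and the highest saline library 0.2793 CPM. In MIA:PLX the counts were 11 after LPS and 1 after saline, a ratio of 7.12 with an exact 95% interval of 1.035 to 307, and 4.08 (0.457 to 193) without MIA_PLX_LPS replicate 3. In CON:PLX they were 18 after LPS and 1 after saline, a ratio of 12.96 (2.05 to 540), and 7.56 (1.047 to 331) without CON_PLX_LPS replicate 3, which held 9 of the 18. In MIA:CON there were 5 counts after LPS and 0 after saline, at least 1.32-fold higher, but without MIA_CON_LPS replicate 2 the LPS counts were 3, which is at the floor. In CON:CON there were 2 counts after LPS and 1 after saline, too few for a fold.

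Treml2 (TLT-2), a receptor of macrophages, neutrophils and B cells, was present after saline and separated LPS from saline with no overlap in each arm. In MIA:PLX it had from 49.64 to 107.1 CPM after LPS with a median of 69.54, against 10.33, 9.239 and 10.28 CPM after saline. In CON:PLX it had from 41.93 to 74.13 CPM with a median of 59.76, against 7.561, 7.919, 10.24 and 10.67 CPM after saline. The lowest LPS value in either arm lay well above the highest saline value. In MIA:CON the LPS libraries had from 47.78 to 77.92 CPM with a median of 59.79, against 9.83, 14.86, 12.54 and 11.74 CPM after saline. In CON:CON they had 41.62, 68.75, 58.08 and 42.4 CPM, against 9.777, 9.513, 7.468 and 12.33 CPM after saline. The fitted log2 change of Treml2 was 2.90 ± 0.250 (SE) in MIA:PLX, 2.72 ± 0.218 in CON:PLX, 2.32 ± 0.216 in MIA:CON and 2.42 ± 0.227 in CON:CON. Its highest LPS library held 2.57 times the CPM of its lowest, against 5.49 times for Cd300lf and 16.6 times for Trem1.

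Cd300lf (CLM-1), an inhibitory receptor that binds phosphatidylserine, had the highest LPS levels of the 8 genes. In MIA:PLX it had from 150.6 to 411.6 CPM after LPS with a median of 340.9, against 2.793, 1.777 and 0.9344 CPM after saline. In CON:PLX it had from 88.02 to 483.5 CPM with a median of 233.4, against 0.5969, 0.8799, 0.8901 and 3.232 CPM after saline. No LPS library came near the saline range. In MIA:CON the LPS libraries had from 97.99 to 222.6 CPM with a median of 161.1, against 2.877, 1.311, 1.286 and 3.172 CPM after saline. In CON:CON they had 387.7, 99.39, 454.9 and 137.3 CPM, against 0.4656, 0.6561, 0.9336 and 0.5032 CPM after saline. The ratio of pooled counts, LPS over saline, was 157 in MIA:PLX (exact 95% interval 99.4 to 266), 220 in CON:PLX (144 to 356), 69.2 in MIA:CON (48.1 to 104) and 438 in CON:CON (231 to 958). The fitted log2 change of Cd300lf was 7.31 ± 0.662 (SE) in MIA:PLX, 7.58 ± 0.589 in CON:PLX, 6.15 ± 0.553 in MIA:CON and 8.68 ± 0.657 in CON:CON, and in CON:PLX it was 8.25 ± 0.677 without CON_PLX_SAL replicate 4.

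Cd300a, the other inhibitory receptor, which binds phosphatidylserine and phosphatidylethanolamine, was the member that stood lower after LPS. In MIA:PLX it had from 32.97 to 62.4 CPM after LPS with a median of 40.54, against 122.9, 118.7 and 94.06 CPM after saline. In CON:PLX it had from 41.06 to 56.48 CPM with a median of 48.36, against 115.6, 108.2, 102.4 and 127.3 CPM after saline. LPS and saline libraries did not overlap in either arm. In MIA:CON the LPS libraries had from 26.1 to 88.52 CPM with a median of 58.45, against 99.02, 104.4, 120.3 and 114.5 CPM after saline. In CON:CON they had 51.49, 54.02, 35.15 and 48.09 CPM, against 102.4, 115.5, 103 and 110.7 CPM after saline. The log2 change was -1.30 ± 0.243 (SE) in MIA:PLX, -1.22 ± 0.224 in CON:PLX, -0.98 ± 0.226 in MIA:CON and -1.19 ± 0.252 in CON:CON. The value of 88.52 CPM belongs to MIA_CON_LPS replicate 6, and without it the MIA:CON change of Cd300a was -1.17 ± 0.222.

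Cd300ld (CLM-5), an activating receptor that signals through the FcR gamma chain, was higher after LPS on average but with wide spread. It averaged 12.2 ± 4.32 CPM after LPS and 3.68 ± 3.12 CPM after saline in MIA:PLX (SD, n = 6 and 3), and 15.2 ± 5.39 CPM after LPS and 3.51 ± 1.33 CPM after saline in CON:PLX (SD, n = 6 and 4). In MIA:CON it averaged 8.997 ± 9.63 CPM after LPS and 3.44 ± 1.93 CPM after saline (SD, n = 6 and 4), and in CON:CON 11.2 ± 6.32 CPM after LPS and 5.62 ± 2.94 CPM after saline (SD, n = 4 each). Only the CON:PLX groups did not overlap. The MIA:CON mean rests largely on MIA_CON_LPS replicate 2, which had 27.19 CPM and 97 of the 162 counts of Cd300ld in that group. Without it the mean was 5.36 ± 4.09 CPM (SD, n = 5) and the log2 change 0.67 ± 0.585 (SE). With all libraries the log2 change was 1.76 ± 0.693 (SE) in MIA:PLX, 2.07 ± 0.596 in CON:PLX, 1.45 ± 0.627 in MIA:CON and 0.98 ± 0.614 in CON:CON. Cd300lb (CLM-7), an activating receptor that pairs with DAP12, had 34 counts in 12 of the 22 LPS libraries and 33 counts in 14 of the 15 saline libraries, and its groups overlapped in each arm.

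**Figure D2:**
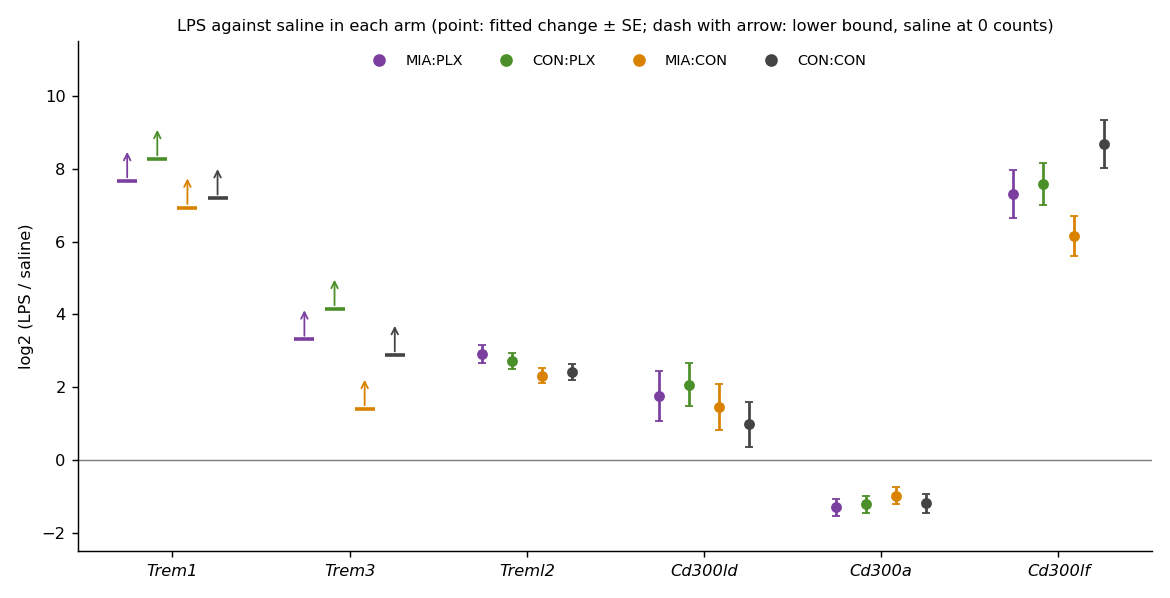
Log2 change, LPS over saline, of the 6 genes that passed the filter on low counts, in the 4 arms. Points are fitted changes with their SE, and dashes with an arrow are lower bounds for Trem1 and Trem3, whose saline libraries held 0 counts. Cd300a lies below 0 in each arm, at -0.98 to -1.30, and Cd300lf between 6.15 and 8.68.

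Of the 8 genes, 6 passed the filter on low counts, and Treml4 and Cd300lb did not. At an adjusted p under 0.05 by edgeR's quasi-likelihood test, with Benjamini-Hochberg adjustment over 13420 genes, 4 of the 6 were past the threshold as higher in MIA:PLX, where 11.8% of all genes were, and 5 in CON:PLX (17.5% of all genes), 4 in MIA:CON (14.5%) and 4 in CON:CON (13.7%). As lower, 1 of the 6 was past it in each arm, where 10.4% of all genes were in MIA:PLX, 14.0% in CON:PLX, 10.9% in MIA:CON and 9.84% in CON:CON. The values of these contrasts were used to choose the genes, so nothing is read from these counts. With every LPS library above every saline library there were 4 of the 6 in MIA:PLX (12.1% of all genes), 5 in CON:PLX (14.0%), 3 in MIA:CON (8.98%) and 4 in CON:CON (11.7%), and Cd300a lay wholly below in each arm (13.3%, 13.7%, 8.44% and 12.9% of all genes in the same order). The median log2 change of the 6 was 4.64 in MIA:PLX, 4.56 in CON:PLX, 3.23 in MIA:CON and 3.91 in CON:CON. Over all genes tested it was 0.037, 0.025, 0.033 and 0.058 in the same order. The median of the 6 pools Cd300a, which fell, with fitted values of Trem1 and Trem3 that depend on a prior count. Nothing is read from that median either, because the genes were chosen on these contrasts. In MIA:CON, Trem3 passed the threshold with all libraries and not without MIA_CON_SAL replicate 1, 3 or 4, and Cd300ld passed it without MIA_CON_LPS replicate 6. With only the groups compared in the fit, Trem3 did not pass the filter on low counts in MIA:PLX, MIA:CON and CON:CON, and 4, 3 and 3 members were then past the threshold as higher in these arms. In MIA:PLX, Cd300ld passed it without MIA_PLX_LPS replicate 2, by DESeq2, and with only the groups compared in the fit.

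With total counts alone as the scaling, the share of higher among the genes past the threshold was 41.0% in MIA:PLX, 36.9% in CON:PLX, 36.5% in MIA:CON and 49.1% in CON:CON, beside 53.1%, 55.7%, 57.0% and 58.2% with TMM, and the median change of all genes moved to -0.100, -0.211, -0.170 and -0.043. The 6 members kept their direction in each arm under that scaling.

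Levels can be compared between genes only per length of exon. On the scale of CPM per kilobase, the median over the 22 LPS libraries was 38.1 for Cd300lf, 14.99 for Trem1, 12.5 for Treml2, 10.21 for Cd300a, 4.66 for Cd300ld and 1.51 for Trem3. Over the 15 saline libraries it was 23.4 for Cd300a, 2.08 for Treml2, 1.52 for Cd300ld and 0.182 for Cd300lf, with Trem1 and Trem3 at 0. Cd300a thus led the members after saline. By group means on the same scale, Cd300lf stood above Cd300a after LPS in each arm, with 31.5 to 58.7 for Cd300lf and 9.55 to 11.7 for Cd300a. Trem1 averaged 9.40 in MIA:CON, where Cd300a averaged 11.7, and 10.7 in CON:CON, where Cd300a averaged 9.96.

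**Figure D3:**
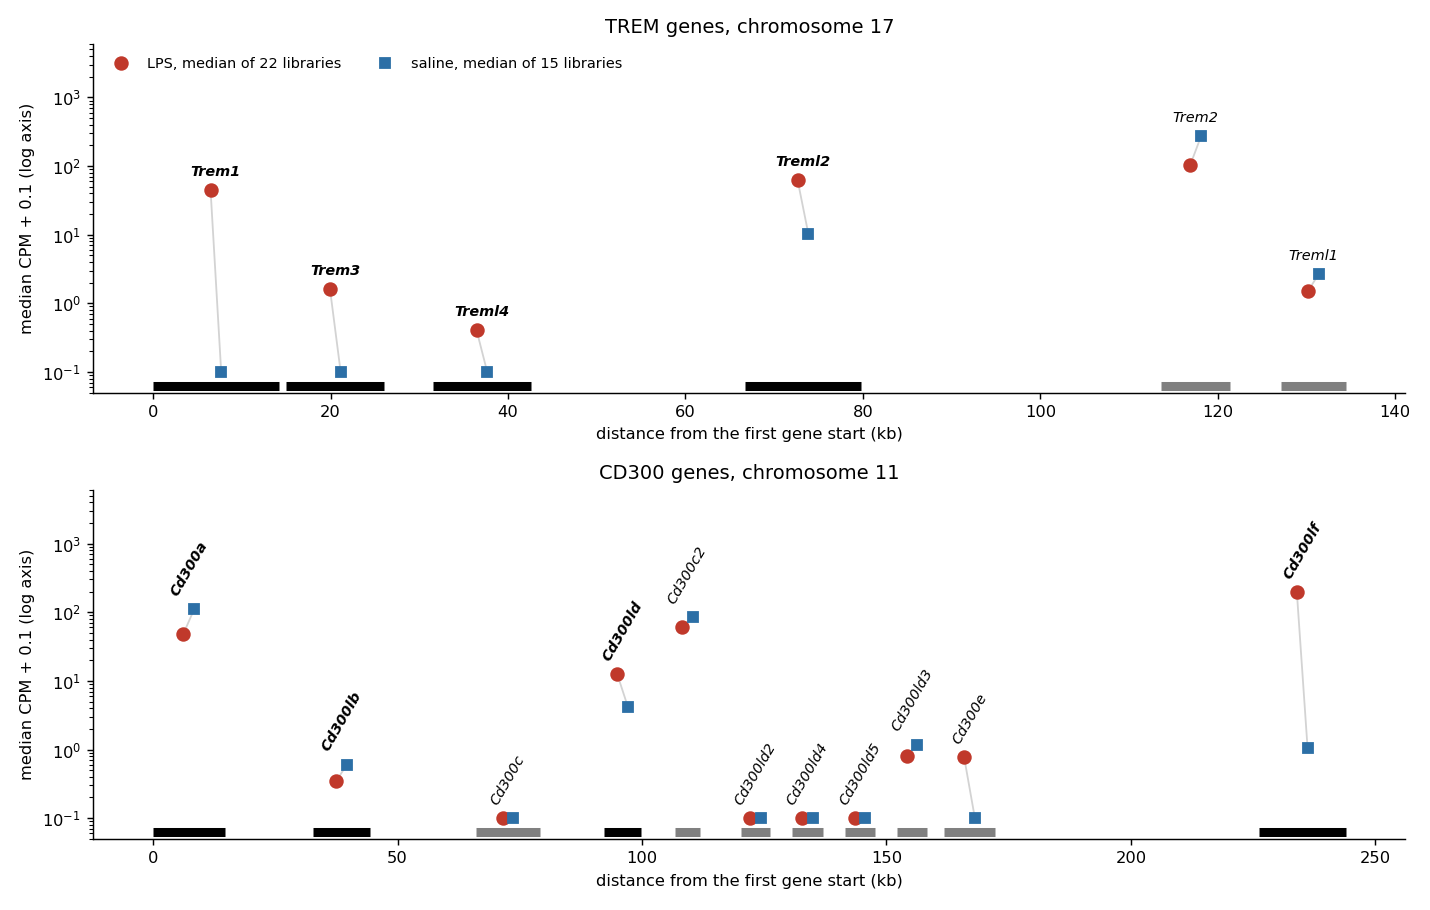
Median CPM plus 0.1 (log axis) of the TREM genes and CD300 genes in the order of the chromosome, LPS (red circles, 22 libraries) beside saline (blue squares, 15 libraries), with bars below for the gene bodies (black for the 8 genes described, grey for other family genes). CPM is not divided by gene length, so heights are to be compared within a gene. Trem2 lies at 104.8 after LPS and 270.4 after saline, and Treml2 beside it at 61.48 after LPS and 10.24 after saline.

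Of 11 other genes of both families, 10 were matched in the table (all but Treml6) and 4 passed the filter (Trem2, Treml1, Cd300c2 and Cd300ld3). None of the 4 rose and 1, Trem2, fell in each arm. Trem2, the DAP12-linked lipid receptor of microglia, averaged 119.5 ± 28.6 CPM after LPS and 319.8 ± 54.4 CPM after saline in MIA:PLX (SD, n = 6 and 3), with a log2 change of -1.42 ± 0.269 and an adjusted p of 0.000167 by edgeR. In CON:PLX it averaged 106 ± 42.8 CPM after LPS and 271 ± 10.8 CPM after saline (SD, n = 6 and 4), with a log2 change of -1.36 ± 0.251 and an adjusted p of 7.14e-05 by edgeR. In MIA:CON the log2 change of Trem2 was -0.88 ± 0.251 (adjusted p 0.0089 by edgeR) and in CON:CON -1.45 ± 0.284 (adjusted p 0.000264). Trem2 and Treml2 are neighbours on chromosome 17, and Trem2 fell after LPS where Treml2 stood higher. The other 3 tested genes did not pass the threshold in any arm: Cd300c2 had a median of 61.33 CPM in LPS libraries and 84.26 in saline libraries, Treml1 1.411 and 2.587 CPM, and Cd300ld3 0.7116 and 1.066 CPM.

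Over the 6 lists of related genes, 67 were tested, of which 17 rose and 11 fell in MIA:PLX, 20 rose and 14 fell in CON:PLX, 15 rose and 10 fell in MIA:CON, and 18 rose and 10 fell in CON:CON. As higher that is 25.4% in MIA:PLX (11.8% of all genes tested), 29.9% in CON:PLX (17.5%), 22.4% in MIA:CON (14.5%) and 26.9% in CON:CON (13.7%). As lower it is 16.4% in MIA:PLX (10.4% of all genes), 20.9% in CON:PLX (14.0%), 14.9% in MIA:CON (10.9%) and 14.9% in CON:CON (9.84%). The lists were drawn up with earlier results of these data known. The plot of related genes gives the changes of those named below.

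Among 19 tested adaptors and activating kinases, 2 rose and 1 fell in MIA:PLX, 4 rose and 2 fell in CON:PLX, 3 rose and 2 fell in MIA:CON, and 3 rose and 1 fell in CON:CON. These are 10.5% to 21.1% higher and 5.26% to 10.5% lower over the arms, beside 11.8% to 17.5% and 9.84% to 14.0% of all genes. The Src-family kinase Fgr rose in each arm. It averaged 69.5 ± 36.5 CPM after LPS and 2.17 ± 1.04 CPM after saline in MIA:PLX (SD, n = 6 and 3), and 67.0 ± 47.0 CPM after LPS and 1.16 ± 0.982 CPM after saline in CON:CON (SD, n = 4 each). Its log2 change was 5.02 ± 0.793 in MIA:PLX, 5.91 ± 0.727 in CON:PLX, 4.80 ± 0.755 in MIA:CON and 5.86 ± 0.767 in CON:CON, with adjusted p-values by edgeR from 2.22e-07 to 2.59e-05, and in CON:CON it was 6.48 ± 0.913 without CON_CON_SAL replicate 3. Fcer1g, the FcR gamma chain used by Cd300ld, rose in each arm, with log2 changes of 0.78 ± 0.250, 1.31 ± 0.231, 1.10 ± 0.229 and 0.76 ± 0.243 in the same order and adjusted p-values of 0.022, 3.58e-05, 0.000625 and 0.0195 by edgeR. In CON:CON the Fcer1g call was lost without any 1 of CON_CON_LPS replicates 2 and 5 and CON_CON_SAL replicates 3 and 4 (edgeR adjusted p 0.0562 to 0.0998) and with only the groups compared in the fit (0.0835), and in MIA:PLX without MIA_PLX_LPS replicate 5 or MIA_PLX_SAL replicate 3 or 4 (edgeR adjusted p 0.0662 to 0.112). The adaptor Blnk fell, with log2 changes of -1.38 ± 0.266, -1.97 ± 0.249, -0.85 ± 0.247 and -1.30 ± 0.278 in the same order (edgeR adjusted p from 1.95e-07 to 0.0101), and its call in CON:CON was lost with the marked libraries included (edgeR adjusted p 0.0687). Lyn did not pass the threshold in any arm, with log2 changes of 0.05 to 0.29.

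Among 12 inhibitory phosphatases and regulators, 2 rose and 2 fell in MIA:PLX, and 4 rose and 4 fell in CON:PLX. In MIA:CON 2 rose and 1 fell, and in CON:CON 3 rose and 2 fell. As shares, 16.7% to 33.3% rose and 8.33% to 33.3% fell over the arms, beside 11.8% to 17.5% and 9.84% to 14.0% of all genes. The inhibitory adaptor Dok3 rose in each arm, to 37.7 ± 8.27 CPM after LPS against 11.9 ± 2.09 CPM after saline in MIA:PLX (SD, n = 6 and 3), and to 28.3 ± 14.8 CPM after LPS against 10.7 ± 0.896 CPM after saline in CON:CON (SD, n = 4 each). Its log2 changes were 1.65 ± 0.324, 1.67 ± 0.284, 2.24 ± 0.305 and 1.40 ± 0.305 in the same order (edgeR adjusted p from 1.88e-06 to 0.000925). The phosphatase Ubash3b fell in each arm, by 0.64, 0.65, 0.88 and 0.88 on the log2 scale (edgeR adjusted p from 0.000613 to 0.0168, and 0.0874 in MIA:PLX without MIA_PLX_SAL replicate 4). The ubiquitin ligase Cblb rose in each arm, with log2 changes of 0.94 to 1.33 (edgeR adjusted p from 0.00432 to 0.015). The Cblb call was lost in CON:CON without CON_CON_LPS replicate 1 (edgeR adjusted p 0.0641), in MIA:CON with only the groups compared in the fit (0.0792) and in CON:PLX with total counts alone (0.0929). Dok2, an inhibitory adaptor, rose in CON:PLX, to 5.03 ± 3.63 CPM after LPS against 0.486 ± 0.456 CPM after saline (SD, n = 6 and 4; edgeR adjusted p 0.00223). In CON:CON its edgeR adjusted p was 0.021, and 0.0577 to 0.0846 without CON_CON_LPS replicate 2 or CON_CON_SAL replicate 2, 3 or 4. Ptpn6, the phosphatase SHP-1 that binds inhibitory receptor tails, did not pass the threshold in any arm, with 104 ± 36.4 CPM after LPS and 134 ± 14.4 CPM after saline in MIA:PLX (SD, n = 6 and 3) and 141 ± 38.4 CPM after LPS and 139 ± 12.8 CPM after saline in CON:CON (SD, n = 4 each).

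Receptors built on the same activating and inhibitory plan were changed in both directions. Of 16 other activating receptors 8 were tested, and 4 rose (Clec4e, Clec4d, Pilrb1 and Pilrb2) and 1 fell (Siglech) in each of the 4 arms. Pilrb1, an activating receptor that pairs with DAP12, averaged 9.18 ± 5.12 CPM after LPS and 0.104 ± 0.180 CPM after saline in MIA:PLX (SD, n = 6 and 3), with adjusted p-values by edgeR from 2.87e-07 to 0.000164 over the arms. Clec4e (Mincle), which signals through the FcR gamma chain, averaged 6.70 ± 4.00 CPM after LPS in MIA:PLX (SD, n = 6) and 6.80 ± 4.98 CPM in CON:CON (SD, n = 4), against 0 in each of the saline libraries of both arms. Its saline libraries held 8 counts in CON:PLX and 3 in MIA:CON, with log2 changes of 4.21 ± 1.03 and 4.34 ± 1.23 (SE). These were 7.94 ± 1.65 without CON_PLX_SAL replicate 2 and 7.15 ± 2.03 without MIA_CON_SAL replicate 1. Pilrb2, another activating PILR gene, averaged 14.3 ± 4.46 CPM after LPS and 0.222 ± 0.194 CPM after saline in MIA:PLX (SD, n = 6 and 3). Siglech, a DAP12-linked receptor of microglia, fell to 252 ± 64.3 CPM after LPS against 1030 ± 147 CPM after saline in MIA:PLX (SD, n = 6 and 3), and its log2 changes were -2.03 ± 0.250, -2.16 ± 0.236, -1.48 ± 0.234 and -1.96 ± 0.269 in the same order of arms. Clec7a did not pass the threshold in any arm, with log2 changes of -0.22 to -1.32, although it did in MIA:PLX with only the groups compared in the fit (edgeR adjusted p 0.0157).

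Of 14 tested inhibitory receptors outside the CD300 family, 6 rose and 4 fell in MIA:PLX, CON:PLX and CON:CON, and 5 rose and 4 fell in MIA:CON. As shares, 35.7% to 42.9% rose and 28.6% fell, beside 11.8% to 17.5% and 9.84% to 14.0% of all genes. Lilrb4a, an inhibitory receptor with phosphatase-binding motifs, rose to 506 ± 175 CPM after LPS against 42.1 ± 1.87 CPM after saline in MIA:PLX (SD, n = 6 and 3), and to 418 ± 167 CPM after LPS against 45.7 ± 5.31 CPM after saline in CON:CON (SD, n = 4 each). Its log2 changes were 3.58 ± 0.361, 3.04 ± 0.308, 2.37 ± 0.299 and 3.19 ± 0.323 in the same order (edgeR adjusted p from 3.41e-09 to 5.11e-07). Pilra rose by log2 2.36 to 3.11 and Pirb by 1.42 to 2.65 (edgeR adjusted p at most 0.0017 for Pilra and 0.00682 for Pirb). Sirpa, which binds CD47, fell by 1.17 to 1.45 on the log2 scale (edgeR adjusted p from 0.000188 to 0.00204). Clec4a2 did not pass the threshold in any arm (edgeR adjusted p 0.0828 in MIA:PLX, and 0.0439 there with only the groups compared in the fit), with 13.9 ± 6.07 CPM after LPS and 27.9 ± 2.66 CPM after saline in MIA:PLX (SD, n = 6 and 3) and 24.5 ± 16.5 CPM after LPS and 24.6 ± 3.36 CPM after saline in CON:CON (SD, n = 4 each).

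Of 10 tested ligands, partners and shedding proteases, 3 rose and 2 fell in MIA:PLX, 2 rose and 2 fell in CON:PLX, 1 rose and 1 fell in MIA:CON, and 2 rose and 1 fell in CON:CON. Il4ra, the interleukin-4 receptor chain with which CD300LF is reported to associate, rose to 301 ± 44.2 CPM after LPS against 92.6 ± 2.55 CPM after saline in MIA:PLX (SD, n = 6 and 3), and its log2 changes were 1.70 ± 0.216, 2.05 ± 0.196, 1.93 ± 0.196 and 1.65 ± 0.204 in the same order (edgeR adjusted p from 9.47e-10 to 4.85e-07). Lgals3, the lectin galectin-3, rose to 8.74 ± 4.05 CPM after LPS against 0.512 ± 0.140 CPM after saline in MIA:PLX (SD, n = 6 and 3; edgeR adjusted p 0.000461), and also in CON:PLX and CON:CON (edgeR adjusted p 0.000747 and 0.0012). S1pr1, a sphingosine-1-phosphate receptor, fell in each arm, with log2 changes of -1.66 to -2.45 (edgeR adjusted p from 0.000177 to 0.00389), and in MIA:CON, where it was -1.66, it was -2.45 ± 0.382 without MIA_CON_LPS replicate 6 (edgeR adjusted p 9.55e-06). Adam10, a protease that sheds TREM2, did not pass the threshold in any arm, with log2 changes of 0.22 to 0.43.

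**Figure D4:**
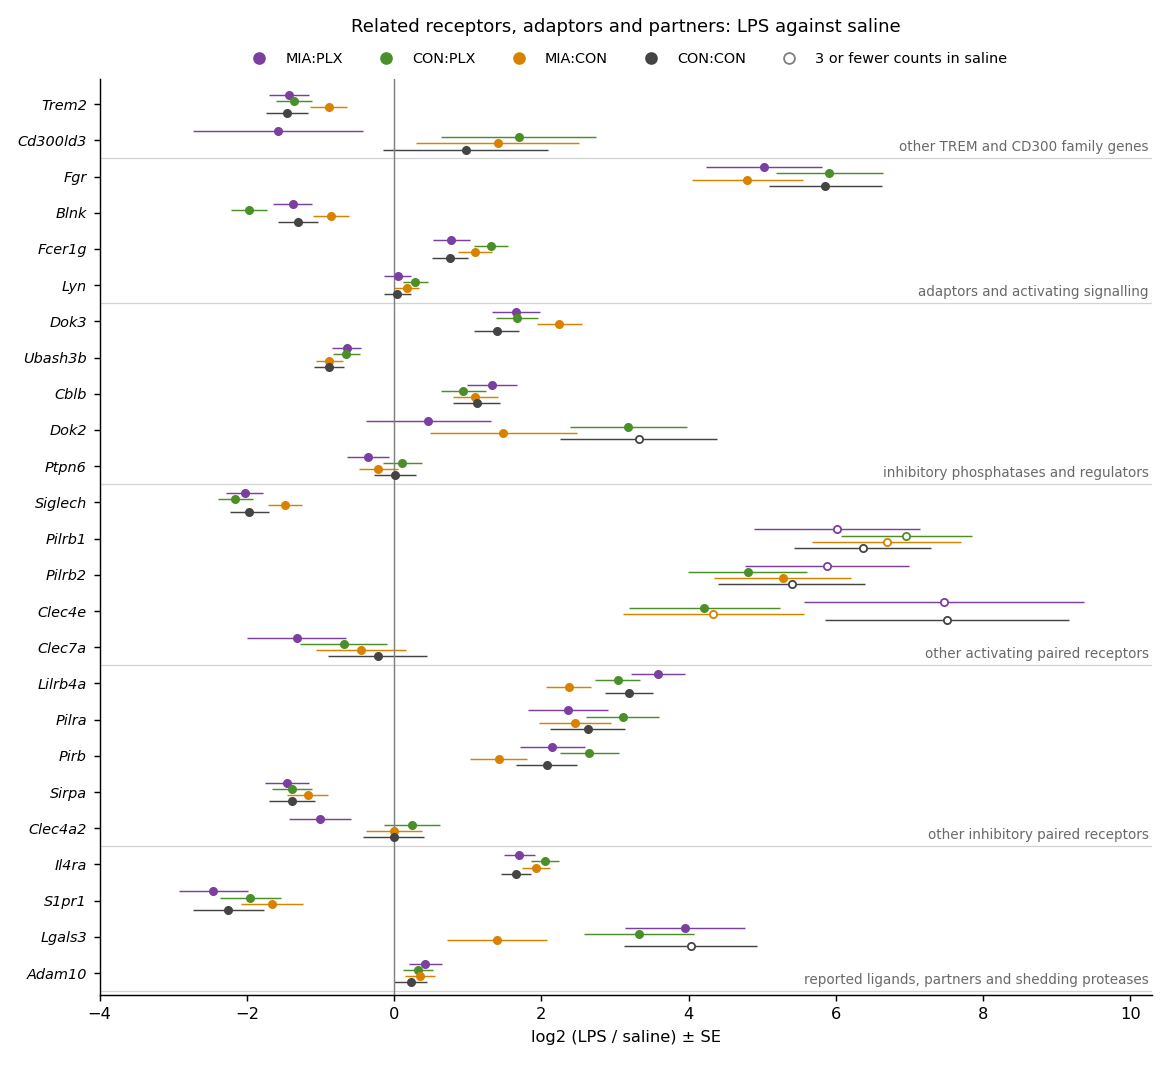
Log2 change, LPS over saline, with SE, of the related genes named in the text, grouped by list and coloured by arm. Open points mark genes with 3 or fewer counts in the saline group, whose fitted change depends on a prior count. Fgr lies between 4.80 and 5.91, Lilrb4a between 2.37 and 3.58, and Trem2 and Siglech lie below 0 in each arm.

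Markers of blood myeloid cells moved with LPS beside Trem1 and Trem3. The neutrophil list summed to between 3.103 and 137.8 CPM in LPS libraries (median 39.78) and between 0 and 112.4 CPM in saline libraries (median 0.4369), with 9 of its 10 genes detected and Elane at 0 in both. The monocyte list summed to between 12.99 and 634.9 CPM in LPS libraries (median 148.8) and between 2.622 and 20.46 CPM in saline libraries (median 9.496). Of its defining genes, Ccr2 averaged 1.38 ± 0.628 CPM after LPS and 7.58 ± 1.89 CPM after saline in MIA:PLX (SD, n = 6 and 3). Other genes of that list went the other way: Fn1, Plac8 and S100a6 were past the threshold as higher in each arm by edgeR. Ly6g of the neutrophil list had no count in any MIA:PLX library. In MIA:CON after LPS it had up to 2.033 CPM, with 5 of 6 libraries at 0. Cxcr2 of the same list averaged 8.25 ± 4.63 CPM after LPS and 0.104 ± 0.180 CPM after saline in MIA:PLX (SD, n = 6 and 3). By edgeR, Cxcr2 was past the threshold as higher in each arm, S100a8 in all but CON:PLX, and Mmp8 in MIA:CON and CON:CON. Trem1 had no count in CON_PLX_SAL replicate 2, whose neutrophil sum of 112.4 CPM was above that of 21 of the 22 LPS libraries, and Cd300lf had 0.8799 CPM there. In MIA_PLX_LPS replicate 2, whose neutrophil sum of 3.103 CPM was the lowest of the LPS libraries, Trem1 had 50.68 CPM and Cd300lf 365.4 CPM. In MIA_CON_LPS replicate 1, with the lowest monocyte sum of the LPS libraries (12.99 CPM), Trem1 had 26.57 CPM and Cd300lf 222.6 CPM. In CON_PLX_LPS replicate 5, with the highest monocyte sum (634.9 CPM), Trem1 had 114.2 CPM, its highest value. In MIA_CON_LPS replicate 3, with the highest neutrophil sum (137.8 CPM), Trem1 had 26.43 CPM. S100a8 averaged 17 ± 11.9 CPM after LPS and 1.19 ± 1.10 CPM after saline in MIA:PLX (SD, n = 6 and 3). The part of monocytes and neutrophils in the Trem1 level was not tested.

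Across the 22 LPS libraries, which share arms, depth and cell makeup, the 6 genes did not vary as a block. Spearman's rho between Trem1 and Trem3 was 0.557, between Trem1 and Cd300lf 0.347, between Trem3 and Cd300a -0.613, and between Cd300ld and Cd300lf -0.280 (n = 22 each). With the group means removed these were 0.470, 0.112, -0.731 and -0.538. Cd300lf varied against the summed microglia markers (rho -0.807), while Cd300ld varied with the border macrophage list (0.826) and the monocyte list (0.673), and Trem1 with the monocyte list (0.607) and the neutrophil list (0.456, n = 22 each). CON_PLX_LPS replicate 2 held the lowest Trem1 (6.872 CPM) and the lowest Cd300lf (88.02 CPM) of all LPS libraries and the highest border macrophage sum (222.3 CPM). The share of counts from mitochondrial ribosomal RNA had a rho of 0.475 with Trem3, 0.551 with Treml2 and 0.435 with Cd300ld. With Trem1, Cd300lf and Cd300a that rho was 0.207, -0.319 and -0.508 (n = 22 each). The part of cell makeup or of this share in these relations was not tested.

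The genes most like each member across those 22 libraries, out of 9422 candidates, differed from member to member. For Trem1 they were Eci2 (rho 0.889) and Il1r2 (0.868), the decoy receptor for interleukin-1. For Cd300lf they were Il15ra (0.904), the interleukin-15 receptor alpha chain, and Pmvk (0.894). For Cd300ld they were Cers2 (0.853), a ceramide synthase, and F13a1 (0.848), which is also on the border macrophage list. Treml2 was most like Ctss (0.794), which encodes cathepsin S, and Tdrd7 (0.728), Cd300a most like Cyth4 (0.737) and Hs2st1 (0.720), and Trem3 most like Gnptab (0.753) and Fbxw7 (0.746). Without MIA_CON_LPS replicate 6 these rho values were between 0.701 and 0.901 (n = 21). With the group means removed they were between 0.661 and 0.875, except that of Trem3 with Fbxw7, which was 0.345. Both sets of values reuse the same libraries for pairs already picked as the highest of 9422, so they are no independent check. High values can arise by chance in such a search, and no p was computed.

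The labels let prenatal MIA be compared with CON, and PLX with CON in the second term. A second term of CON is written below as none or as without PLX, although the labels do not define it. By edgeR none of the 6 tested members was past an adjusted p of 0.05 in any of the 4 MIA contrasts, the 4 PLX contrasts or the 4 interactions, nor by DESeq2. For Trem1 and Trem3 this was fixed in advance in the saline contrasts and the interactions, because their saline libraries held 0 counts. Of all genes, edgeR put 0.0149% past the threshold for MIA against CON with PLX after LPS (2 genes), 0.00745% for PLX against none in prenatal CON after LPS (1 gene), and 0% in the other 10 contrasts, where 125 to 1252 of the 13420 genes had an unadjusted p under 0.05 by edgeR and DESeq2 put 0 to 25 genes past the threshold. At an unadjusted p under 0.05 by edgeR there was Cd300lf for MIA against CON without PLX after saline, Trem1, Trem3 and Cd300lf for PLX against none in prenatal MIA after LPS, and Cd300lf for the interaction of MIA and LPS without PLX, in contrasts where 159, 1189 and 415 of the 13420 genes were. These counts use the contrasts the genes were chosen on, and nothing is read from them.

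**Figure D5:**
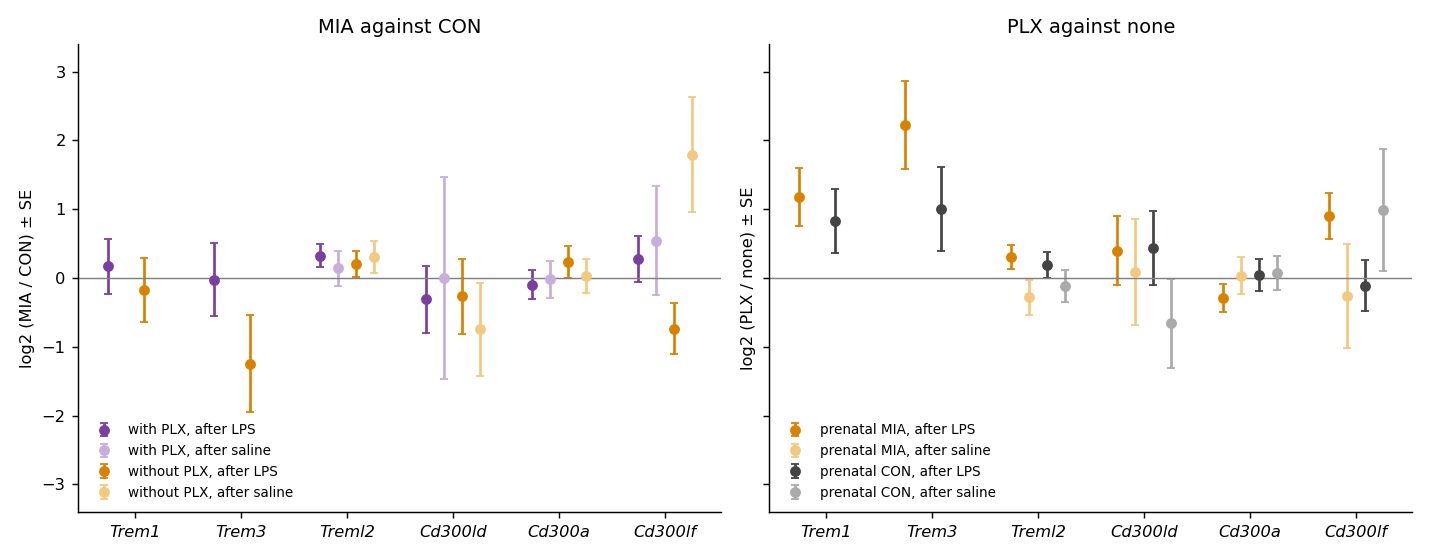
Log2 difference with SE of MIA over CON (left) and of PLX over none (right) for the 6 genes that passed the filter, after LPS and after saline. Trem1 and Trem3 are left out after saline, where both groups held 0 counts. The highest point is Trem3 for PLX over none in prenatal MIA after LPS, at 2.22 ± 0.644, and Cd300a lies between -0.29 and 0.23 in all 8 contrasts. Without MIA_CON_LPS replicate 6 those outer values of Cd300a were -0.10 and 0.05.

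Without PLX, MIA libraries stood below CON libraries after LPS for Trem3, with no overlap: it had from 0 to 1.153 CPM with a median of 0.7157 in MIA, against 1.334, 1.637, 1.274 and 1.898 CPM in CON. The log2 difference was -1.24 ± 0.710 (SE), and 0.320% of all genes lay wholly below in that contrast. Trem3 rests on 10 counts in those MIA libraries and 23 in the CON libraries. Cd300lf averaged 162 ± 41.9 CPM in MIA and 269.8 ± 178 CPM in CON after LPS without PLX (SD, n = 6 and 4), a log2 difference of -0.74 ± 0.368 with overlapping groups. Trem1, Treml2, Cd300a and Cd300ld also overlapped there, with log2 differences of -0.18 ± 0.465, 0.20 ± 0.190, 0.23 ± 0.232 and -0.27 ± 0.547. Without MIA_CON_LPS replicate 6 the difference was 0.05 ± 0.224 for Cd300a and -0.04 ± 0.536 for Cd300ld.

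After saline without PLX, Cd300lf was the member with separate groups. It had 2.877, 1.311, 1.286 and 3.172 CPM in MIA, against 0.4656, 0.6561, 0.9336 and 0.5032 CPM in CON, from 29 and 9 counts. The log2 difference was 1.79 ± 0.835 (SE), and 1.58% of all genes lay wholly above in that contrast. All 4 MIA values lay above the highest CON value, at levels far below those after LPS. The LPS change of Cd300lf in MIA:CON was smaller than that in CON:CON by 2.52 ± 0.911 on the log2 scale (edgeR, coded MIA minus CON as -2.52), and by 2.49 ± 0.940 (-2.49) without MIA_CON_LPS replicate 6. With PLX the same interaction was -0.27 ± 0.837, and it was -0.94 ± 0.909 without CON_PLX_SAL replicate 4.

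With PLX, MIA and CON libraries overlapped for all 6 genes after LPS. After saline they overlapped for Treml2, Cd300a, Cd300ld and Cd300lf, while Trem1 and Trem3 held 0 counts in both groups. After LPS Trem1 averaged 64.0 ± 17.8 CPM in MIA and 57.1 ± 35.4 CPM in CON (SD, n = 6 each), a log2 difference of 0.17 ± 0.405. Treml2 averaged 74.7 ± 19.9 CPM in MIA and 59.9 ± 11.8 CPM in CON (SD, n = 6 each), a log2 difference of 0.32 ± 0.169. The other 4 differed by -0.31 to 0.27 on the log2 scale after LPS, each by less than its SE.

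Set against the same prenatal group without it, PLX went with higher mean levels of Trem1 and Trem3 after LPS, with overlap in each case. In prenatal MIA, Trem1 averaged 64.0 ± 17.8 CPM with PLX and 28.2 ± 7.25 CPM without it (SD, n = 6 each), a log2 difference of 1.18 ± 0.420, or 1.10 ± 0.453 without MIA_CON_LPS replicate 6. Trem3 averaged 3.03 ± 2.61 CPM with PLX and 0.625 ± 0.421 CPM without it (SD, n = 6 each), a log2 difference of 2.22 ± 0.644. Cd300lf averaged 302 ± 102 CPM with PLX and 162 ± 41.9 CPM without it (SD, n = 6 each), a log2 difference of 0.90 ± 0.336. In each of these 3 the groups shared part of their range. In prenatal CON the log2 differences, PLX over none, were 0.83 ± 0.466 for Trem1, 1.003 ± 0.615 for Trem3 and -0.11 ± 0.369 for Cd300lf. Beside these differences, the monocyte list had a median sum of 154.5 CPM in MIA:PLX and 69.52 CPM in MIA:CON after LPS, and 224.9 CPM in CON:PLX and 87.76 CPM in CON:CON, and its part in them was not tested. After saline, PLX and non-PLX libraries overlapped for Treml2, Cd300a, Cd300ld and Cd300lf, while Trem1 and Trem3 held 0 counts in both.

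In order of group means, Trem1 had 64.0 CPM in MIA:PLX, 57.1 in CON:PLX, 32.2 in CON:CON and 28.2 in MIA:CON after LPS, with 0 in the saline groups, and each LPS group overlapped its neighbour. Treml2 and Cd300lf also had MIA:PLX after LPS at the top, Treml2 with 74.7, 60.6 (MIA:CON), 59.9 (CON:PLX) and 52.7 CPM (CON:CON), and Cd300lf with 302, 269.8 (CON:CON), 249.6 (CON:PLX) and 162 CPM (MIA:CON), again with overlap between neighbours. For both the single gap in the order lay between the LPS groups and the saline groups. For Cd300a that gap lay between the LPS groups, at 45.3 to 55.4 CPM, and the saline groups, at 108 to 113 CPM. Among the saline groups the order of Cd300a, Treml2 and Cd300lf held overlaps at every step.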

How the data were processed

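Microglial RNA-seq from 39 libraries was deposited by the authors in the form of expected counts per gene, which are estimated counts made with STAR and RSEM per the submitters' processing notes, which also name DESeq2. Neither genome build nor annotation is named in the sources used here. Gene symbols and positions came from GENCODE M21, in which 55227 of 55487 identifiers were found. Counts were rounded (14.71% of values above 0 were not whole), 2 libraries marked for exclusion were left out, and 37 were fitted in 8 groups with edgeR 4.0.16 (R 4.3.3, TMM, quasi-likelihood test, Benjamini-Hochberg adjustment). The filter on low counts (minimum count 10, minimum total 15) left 13420 genes, with 15530 others that held a count not tested. CPM uses TMM-scaled totals. Library totals of 1510020 to 5746239 counts put the floor at 3 counts, and floors and intervals (exact, 95%) cover counting error only. The code was tested on simulated data.

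The members and lists were chosen with earlier results of these data known. Besides the 8 members, up to 4 genes past the threshold with the smallest p in CON:CON and the tested gene with the largest p were named from each list, and genes most like a member by Spearman's rho. A gene that this rule names is not reported here. Alternatives were DESeq2 1.42.0, other scalings, no filter, the marked libraries included, only the groups compared, a replicate block and leaving out each library. Replicate numbers were not used to pair libraries in the main fit. Explanations were not tested.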

Additional observations from a re-analysis of the deposited data

Results flagged for a closer look

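A single library stood apart from the rest of its group in 3 of the 34 gene and group combinations examined, and chance alone flags about 1 in 20. Trem1 had 42.04 CPM in MIA_CON_LPS replicate 2, against 21.1 to 28.45 CPM in the other 5 libraries, a gap of 0.6494 of the group's range. Cd300ld had 4.137 CPM in MIA_PLX_LPS replicate 2, against 12.26 to 16.83 CPM in the other 5, a gap of 0.6403 of the range. Cd300lf had 3.232 CPM in CON_PLX_SAL replicate 4, against 0.5969 to 0.8901 CPM in the other 3, a gap of 0.8888 of the range.

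The 2 libraries marked for exclusion held values away from those of their labelled group. CPM of the marked libraries and of the saline libraries beside them are scaled with the marked libraries included, and so differ slightly from those in other paragraphs. In the marked MIA_PLX_SAL replicate 1, Trem1 had 18.75 CPM, against 0 in the other 3 libraries of that group, Treml2 had 40.29 CPM, against 9.202 to 10.29, and Cd300lf had 130.4 CPM, against 0.931 to 2.78. In the marked CON_CON_LPS replicate 3, Cd300lf had 8.041 CPM, against 99.39 to 454.9 CPM in the 4 LPS libraries used (scaled without the marked libraries) and 0.4641 to 0.9302 CPM in the CON:CON saline libraries. In the same library Trem1 and Trem3 had 0 CPM, Treml2 had 6.186 CPM, against 41.62 to 68.75 in the 4 LPS libraries used, and Cd300a had 82.27 CPM, against 35.15 to 54.02. The reason for marking these libraries is not given in the sources used here.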

How the results depend on the processing

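Of 1858 recomputed member changes, 1835 moved by less than the replicate spread and 23 by more, and none that had passed the threshold changed direction. Of 1783 recomputed changes of named related genes, 19 lost and 10 gained the threshold and none that had passed it changed direction. With the marked libraries included, the LPS change in MIA:PLX was 3.70 ± 0.993 for Trem1, 2.08 ± 0.382 for Treml2 and 3.13 ± 0.868 for Cd300lf. Related genes that fell in CON:CON numbered 10, 6 with the marked libraries included and 16 by DESeq2. With only the groups compared in the fit, 2 related genes passed the threshold for MIA against CON and 1 for PLX against none, in place of 0. In the same fits 4, 5, 3 and 3 members were past the threshold as higher after LPS (MIA:PLX, CON:PLX, MIA:CON, CON:CON).

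Leaving out 1 library at a time, the members past the threshold as higher numbered 4 to 5 in MIA:PLX, 5 in CON:PLX, 3 to 5 in MIA:CON and 4 in CON:CON, with 1 lower in each arm. Related genes that rose numbered 14 to 18, 19 to 21, 14 to 17 and 15 to 22 in the same order, and those that fell 9 to 12, 12 to 14, 9 to 13 and 9 to 12. For MIA, PLX and the interactions both counts were 0 throughout. For Trem1 and Trem3 that was fixed in the saline contrasts and the interactions, as their saline libraries held 0 counts. Same-numbered libraries had a mean correlation of 0.044, with 19 of 107 pairs over 0.1 and a highest value of 0.663. Libraries of different numbers had a mean of -0.009, with 56 of 487 pairs over 0.1 and a highest value of 0.493. In all, 15 of 37 libraries correlated best with their own number. Same-numbered libraries were thus more alike by these measures. The number that would match by chance was not computed, and a pairing or batch by number was not tested. With a replicate block, 4, 5, 4 and 4 members were past the threshold as higher and 1 as lower in each arm, and of related genes 17, 22, 17 and 18 rose and 13, 14, 13 and 13 fell. Trem3 and Treml4 rest on few counts, which limits their precision.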
